A study of Mus musculus with 8 samples.

Results

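The genes described here are the ion channel genes, read in double-positive thymocytes, which are immature T cells positive for CD4 as well as CD8. They were chosen by symbol in the annotation of the Mouse 430 2.0 array: potassium channel genes (Kcn), voltage-gated sodium channel genes (Scn followed by a digit), calcium channel genes (Cacn), CLC chloride channel genes (Clcn), TRP channel genes (Trpc, Trpm and Trpv), P2X receptor genes (P2rx), and the store-operated entry genes Orai1 to Orai3, Stim1 and Stim2. The rule found 157 genes of 18193 in the annotation, read by 334 probe sets, and 41 of them gave a signal above 33.8 on 4 or more of the 8 arrays and were tested. That limit is the median over the whole table. Below that limit a signal is called dim. A symbol rule also takes in genes that encode no channel: Trpc4ap encodes a protein named for binding TRPC4, and Kcnq1ot1, Kcnmb4os1 and Kcnmb4os2 are noncoding transcripts.

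The study asked what happens to these cells without c-Myb, a DNA-binding regulator of blood cell precursors, before positive selection. All 8 mice were 4 to 5 weeks old, lacked the T-cell receptor alpha gene (Tcra-/-) and carried Cd4-Cre, a recombinase driven from Cd4 regulatory sequence, so the controls share both. The titles and the genotype field put 4 mice in the c-Myb sufficient group (Control) and 4 in the c-Myb deficient group (Mutant), with 1 array per mouse. The source names disagree, with the Control arrays given as Mybf/f Cd4-Cre Tcra-/- and the Mutant arrays as Mybf/w Cd4-Cre Tcra-/-. Myb transcripts do not settle this. Of 3 Myb probe sets, the brightest read 8327 to 10388 on sufficient and 10512 to 11754 on deficient arrays, and another read 4183 to 5158 and 5458 to 6396, so both were higher on every array titled deficient. The third overlapped at 6457 to 8464 and 7021 to 7707. If loss of Myb lowered these signals, the order on the non-overlapping probe sets would be that of the source names, not the titles. The place of these probe sets against the floxed stretch was not analysed here. Every group name and direction below is therefore that of the title, as deficient minus sufficient. Cells were selected by magnetic columns through CD4 alone.

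Each value is a signal in the array's linear units. Array medians lay between 30.0 and 37.9, no 2 arrays were copies, and Cd8a (9755 to 11951), Cd8b1, Cd4, Rag1 and Themis were bright on all 8, so the defining genes of the labelled cell type were present. Among markers of other cells, the B cell genes Cd79a, Ms4a1 and Pax5 stayed at or below 37.5. Blnk, also of that list, read 15.8 to 67.3 on sufficient and 22.6 to 33.0 on deficient arrays. Ighm (6579 to 8078) and Cd79b (320 to 611) were bright on all 8. Of neuron and glia markers, Snap25, Syt1, Gfap and Nefl stayed at or below 26.7, while Mbp (1220 to 1610) and Tubb3 (40.4 to 102) were above the limit on all 8. The macrophage and dendritic cell genes H2-Aa (214 to 692), Cd74 (139 to 677) and Lyz2 (57.2 to 171) were also above it on all 8. So were Pecam1 (387 to 712) and Epcam (43.5 to 117) of the thymic stroma markers. Xist, the RNA of the inactive X chromosome, was high on all 4 deficient arrays (4129 to 5736) and on sufficient replicate 1 (4359), but 23.4 to 36.7 on sufficient replicates 2, 3 and 4. The group difference is thus for the most part also a difference in Xist level. With 1 sufficient array high in Xist, values on that array cannot tell group and Xist level apart for any gene below. In bulk RNA, fewer cells of a type and less RNA per cell cannot be told apart.

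Ion channels set the membrane potential and the calcium level of a cell. In T cells, the endoplasmic reticulum sensors STIM1 and STIM2 open ORAI channels of the plasma membrane when calcium stores are emptied, and potassium channels such as Kv1.3, encoded by Kcna3, and KCa3.1, encoded by Kcnn4, let potassium out and so keep the driving force for calcium entry. In double-positive thymocytes, a calcium rise after receptor engagement is known to take part in positive selection, and the sodium channel beta subunit gene Scn4b is among the channel genes read here.

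Of the 41 tested genes, 6 were lower on deficient arrays (Scn4b, Cacna1e, Clcn2, Kcnh2, Kcna3 and Kcna2), 3 were higher (Stim1, Clcn5 and Trpm1), and 32 did not pass. Trpm1 was dim on every sufficient array and so entered the test only through the deficient group. The test was limma on log2(signal + 16), with p-values adjusted over all tested genes and a threshold of 0.05. Over all 9939 tested genes 9.98% passed, 5.9% higher and 4.08% lower, against 22.0% of the tested channel genes, 7.32% higher and 14.6% lower; with 9 genes called these shares are coarse, and whether the channel genes differ from other genes was not tested. Their differences were evenly divided in sign, 21 positive and 20 negative, with a median log2 difference of 0.04 against 0.02 over all tested genes. The 4 sufficient and 4 deficient arrays did not overlap for 10 of the 41, the 9 called genes and Orai1, and over all tested genes groups did not overlap for 17%. Leaving out Trpm1, and all genes dim throughout 1 group, 2 of 40 channel genes were higher and 6 lower (8 in all, against 9.75% of 9906 genes), and 9 did not overlap (against 16.7% of those genes). Apart from Scn4b, no called difference held in every one of the fits tried. With the Xist level added to the model only Scn4b passed, and over all genes that fit called 0.262%.

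**Figure D1:**
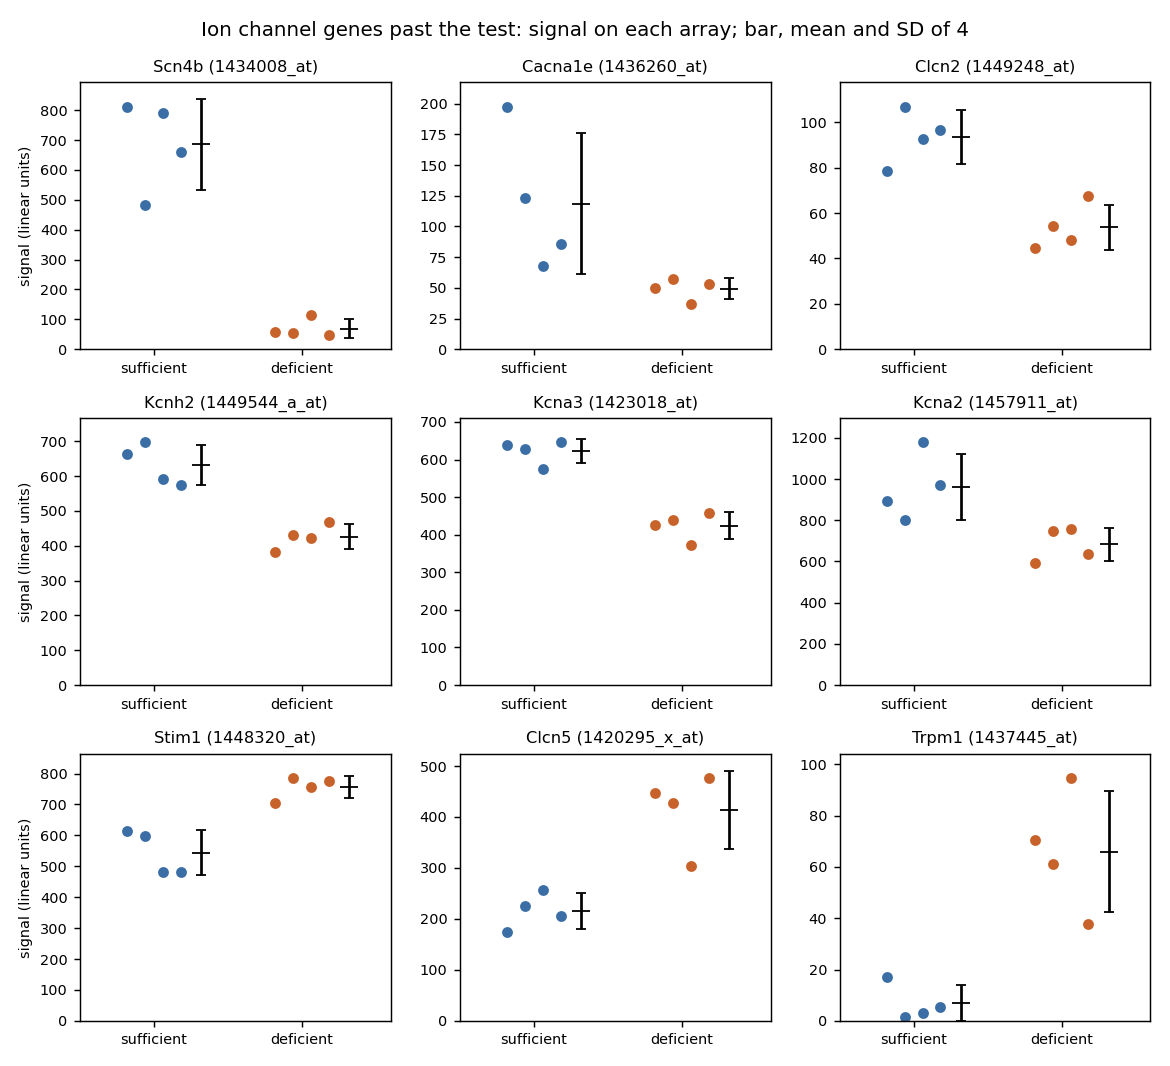
Signal in linear units on each array for the 9 channel genes that passed the test (points, 4 sufficient arrays in blue and 4 deficient arrays in orange; black bar, mean and SD), with the probe set in each panel title and every axis starting at 0. The groups do not overlap in any panel; Scn4b read 482 to 812 on sufficient and 47.2 to 115 on deficient arrays.

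Scn4b encodes the beta-4 subunit of voltage-gated sodium channels, a single-pass membrane protein that modulates the pore-forming alpha subunit. Its probe set 1434008_at read 812, 482, 792 and 659 on sufficient replicates 1 to 4, and 58.6, 52.6, 115 and 47.2 on deficient replicates 1 to 4. Every sufficient array was far above every deficient one, and all deficient arrays were still above the dim limit. The log2 difference was -3.09 ± 0.23 (SE), an 8.54-fold lower level on the log2(signal + 16) scale (adjusted p = 6.86e-05). It passed in all 19 alternative fits, between -3.37 and -2.51, and it was -3.36 in the fit that includes the Xist level (adjusted p = 0.00871). On sufficient replicate 1, whose Xist was as high as on the deficient arrays, Scn4b had the highest value of the 8. This is the value of 1 mouse and cannot tell group and Xist level apart.

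Of the 11 voltage-gated sodium channel genes in the annotation, Scn4b and Scn2b were tested. Scn2b, the gene of the beta-2 subunit, is the neighbour of Scn4b in the RefSeq gene order, and its probe set 1436134_at read 511, 363, 293 and 259 on sufficient and 359, 475, 578 and 235 on deficient arrays. The groups overlapped throughout, with a log2 difference of 0.17 and an interval from -0.41 to 0.75 (adjusted p = 0.741). On the other side of Scn4b in that order lies Tmprss4, a serine protease gene looked up after its neighbour's values were seen, which fell by 1.12 (adjusted p = 0.0151). The other 9 genes of this family did not pass the limit on 4 arrays and were not tested.

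The stretch from 250 bases before to 50 bases after the annotated start is shown for a gene that fell most, a potassium channel gene that fell and the store-operated entry gene that rose, because c-Myb binds DNA through sites with the core AACNG. Sequences are RefSeq's on build GRCm38.p6, 5′ to 3′ on the strand of the gene, with matches to AACNG or CAACTG on either strand in capitals; CAACTG contains the shorter motif. Scn4b lies at chr9:45138374-45138673 on the plus strand, Kcna3 at chr3:107035912-107036211 on the plus strand and Stim1 at chr7:102267569-102267868 on the plus strand.
Scn4b: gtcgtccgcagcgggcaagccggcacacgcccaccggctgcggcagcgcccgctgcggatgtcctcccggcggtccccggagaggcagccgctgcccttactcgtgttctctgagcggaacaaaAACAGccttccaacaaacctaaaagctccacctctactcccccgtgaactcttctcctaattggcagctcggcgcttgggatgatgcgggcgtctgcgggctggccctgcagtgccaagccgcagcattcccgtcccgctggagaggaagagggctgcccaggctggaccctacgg
Kcna3: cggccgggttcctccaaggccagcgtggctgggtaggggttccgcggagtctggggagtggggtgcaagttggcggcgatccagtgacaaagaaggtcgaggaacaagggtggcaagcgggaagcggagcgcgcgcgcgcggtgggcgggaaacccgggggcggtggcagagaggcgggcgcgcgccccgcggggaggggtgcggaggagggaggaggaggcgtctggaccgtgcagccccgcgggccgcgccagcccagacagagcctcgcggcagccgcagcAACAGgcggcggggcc
Stim1: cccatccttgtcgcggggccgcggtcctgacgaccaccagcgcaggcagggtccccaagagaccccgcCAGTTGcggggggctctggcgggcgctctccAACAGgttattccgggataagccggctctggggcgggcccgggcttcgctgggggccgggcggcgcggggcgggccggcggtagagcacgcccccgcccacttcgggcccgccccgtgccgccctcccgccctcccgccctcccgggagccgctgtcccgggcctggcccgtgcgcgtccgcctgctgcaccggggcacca
AACNG was found once in the Scn4b window, once in that of Kcna3 and 2 times in that of Stim1, and CAACTG only in that of Stim1 among these 3. All 9 called genes had such a window, 11 windows in all. AACNG was in 8 of the 11 windows, from 7 of the 9 genes, and in 80.3% of all 32851 windows of 300 bases. CAACTG was in 2 of the 11 windows, those of Stim1 and Clcn5, and in 13.7% of all windows. A match is a run of letters and not a measured binding site, and these data hold no binding measurement.

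Among the voltage-gated potassium channel genes and their subunits, 7 of 44 were tested, 3 fell and 0 rose. Kcna3 encodes Kv1.3, the main voltage-gated potassium channel of T cells. Its only probe set, 1423018_at, read 639, 629, 575 and 646 on sufficient arrays and 427, 439.7, 373 and 457 on deficient arrays. Replicates lay close together and the lowest sufficient array stood well above the highest deficient one. The log2 difference was -0.54 ± 0.09 (adjusted p = 0.00547), a 1.45-fold lower level. It passed without each array in turn (adjusted p up to 0.0196), while with the Xist level in the model it was -0.58 with adjusted p = 0.194.

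Kcna2, the gene of the related channel Kv1.2, lies next to Kcna3 in the RefSeq gene order. The brightest probe set of Kcna2, 1457911_at, read 893, 801, 1178 and 971 on sufficient arrays and 594, 746, 756 and 638 on deficient arrays. The groups were separate by a narrow margin, 801 against 756. The log2 difference was -0.47 ± 0.13 (adjusted p = 0.0405), and the other probe sets past the limit differed by -0.52 (1439872_at) and -0.55 (1440759_at). The call ended without any one of 7 arrays, all but sufficient replicate 2, with adjusted p-values from 0.0556 to 0.117 and differences from -0.52 to -0.37. It also ended with no variance trend (adjusted p = 0.0634) and with the Xist level (-0.39, adjusted p = 0.601). Cd53, a tetraspanin gene 2 coding genes from Kcna3 on its other side, rose by 2.88, so the 2 potassium channel genes moved against this neighbour, which was looked up after their values were known.

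Kcnh2 encodes the pore of the ERG potassium channel, best known for its part in ending the heart's action potential. Probe set 1449544_a_at read 665, 697, 592 and 574 on sufficient arrays and 381, 432, 422 and 469 on deficient arrays. All sufficient values were above all deficient ones. Deficient minus sufficient gave -0.55 ± 0.10 on the log2 scale (adjusted p = 0.00701) and passed without each array in turn (adjusted p up to 0.0269). In the fit with the Xist level it was -0.63 (adjusted p = 0.181).

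The other 4 tested genes of this family overlapped between groups. Kcnab2, which encodes a cytosolic beta subunit of Kv1 channels, read 375 to 623 on sufficient and 458 to 683 on deficient arrays and differed by 0.06 (interval -0.33 to 0.44). Kcnh3 differed by -0.09, Kcnq5 by 0.25 and the noncoding Kcnq1ot1 by 0.42, none past the test. A dimmer Kcnab2 probe set, 1425885_a_at, had the opposite sign, -0.29 (interval -0.87 to 0.29).

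Of potassium channels opened by calcium or sodium, 2 of 13 genes were tested and 0 passed. Kcnn4 encodes KCa3.1, the calcium-activated channel of activated T cells. It read 3024, 3363, 2906 and 2459 on sufficient arrays and 2722, 2981, 3428 and 2899 on deficient arrays. The groups overlapped fully, and the log2 difference was 0.04 with an interval from -0.19 to 0.27 (adjusted p = 0.870; -0.10 on probe set 1421038_a_at). Kcnmb4, the gene of a regulatory subunit of the large-conductance BK channel, read 256, 205, 241 and 222 on sufficient arrays and 129, 154, 97.1 and 224 on deficient arrays. Deficient replicate 4 lay among the sufficient arrays and the other 3 deficient arrays below them all. The difference of -0.61 ± 0.20 missed the threshold (adjusted p = 0.0782), and without deficient replicate 4 it was -0.81 (adjusted p = 0.00948). That array also had the highest 18S rRNA control signal, 7143 against 676 to 1459 on the others, and the part of this in the Kcnmb4 value was not tested.

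Inward rectifiers and K2P background channels set resting potassium conductance. Kcnj11, whose product Kir6.2 forms the pore of the ATP-sensitive potassium channel, was tested as 1 of 15 inward rectifier genes, and read 367 to 445 on sufficient and 396 to 648 on deficient arrays (log2 0.31, interval -0.03 to 0.64, adjusted p = 0.242). Of 12 K2P genes, Kcnk5 differed by -0.10 (interval -0.50 to 0.30) and Kcnk6 by -0.13 (interval -0.54 to 0.28). Kcnk5, an acid-sensitive background channel gene, read 80.8 to 115 and 71.5 to 131. Neither of the 2 passed.

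**Figure D2:**
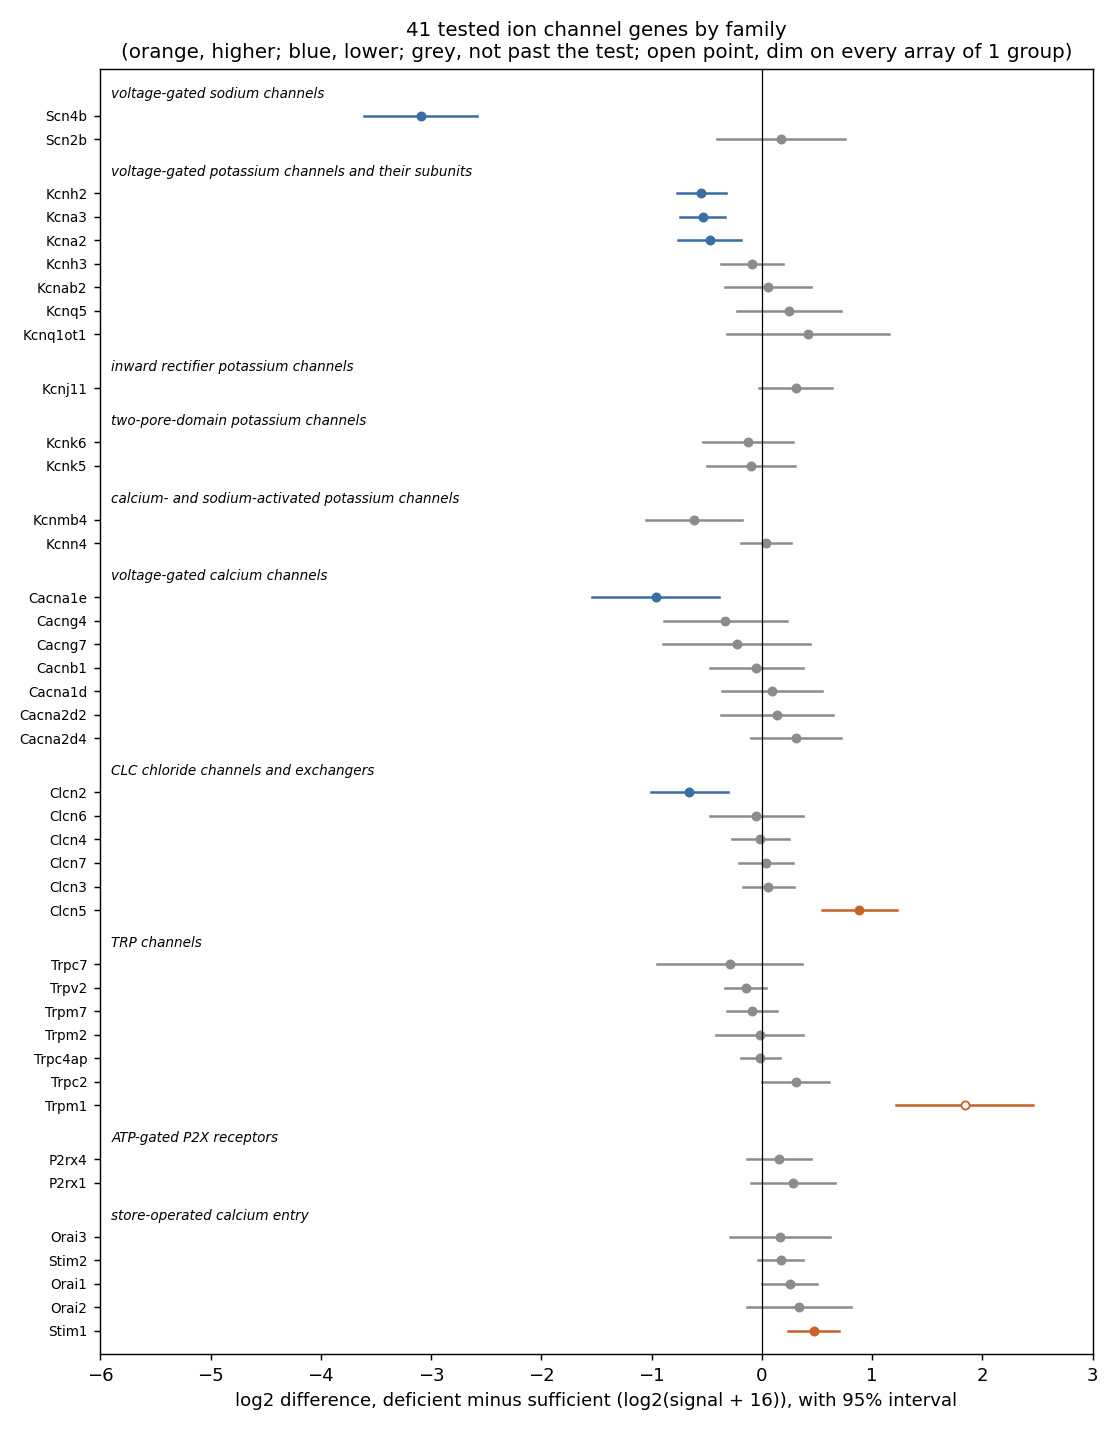
Log2 difference, deficient minus sufficient on the log2(signal + 16) scale (x axis), with its 95% interval from limma, for each of the 41 tested genes (y axis, grouped by family). Orange genes were higher, blue genes lower and grey genes not past the test; Scn4b lies at -3.09. The open point is Trpm1, which was dim on every sufficient array, so that its place depends on the pseudocount.

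All 5 genes of store-operated calcium entry were tested, 1 rose and 4 did not pass. Stim1 encodes the sensor of the endoplasmic reticulum that gates ORAI channels. Probe set 1448320_at read 615, 598, 483 and 480.5 on sufficient arrays and 706, 785, 755 and 778 on deficient arrays. Every deficient array was above every sufficient one, and sufficient replicates 3 and 4 were lowest. The log2 difference was 0.47 ± 0.11 (adjusted p = 0.0181), a 1.39-fold higher level.

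The Stim1 call was lost without sufficient replicate 3 (0.42, adjusted p = 0.0672), without deficient replicate 2 (0.45, adjusted p = 0.0634) and with the mean of its probe sets (0.32, adjusted p = 0.136). Its dimmer probe set 1436945_x_at read 76.1 to 146 on sufficient and 113 to 149 on deficient arrays. In the fit with the Xist level the difference was 0.29 (adjusted p = 0.602). On sufficient replicate 1, Stim1 was the highest of the sufficient arrays.

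The other sensor gene, Stim2, read 868, 973, 855 and 889.6 on sufficient and 918, 949, 1075 and 1110.2 on deficient arrays. The groups overlapped, and the log2 difference was 0.17 with an interval from -0.03 to 0.37 (adjusted p = 0.283). Orai1, the gene of the pore of the calcium-release-activated channel, read 121.0, 121.1, 111 and 130.5 on sufficient and 135, 157, 154 and 142 on deficient arrays. Here the groups did not overlap, yet the difference of 0.25 (interval 0.00 to 0.50) did not pass (adjusted p = 0.195).

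Orai2 and Orai3 encode the other members of the pore family. Orai2 read 709, 825, 576 and 429.6 on sufficient and 812, 909.9, 961 and 532 on deficient arrays, with a difference of 0.34 (interval -0.14 to 0.81, adjusted p = 0.375). Orai3 read 37.1 to 73.3 and 50.0 to 82.9, with a difference of 0.17 (adjusted p = 0.677). All 5 differences of the family were positive, from 0.17 to 0.47, but that of Stim1 alone passed, and the differences between these genes were not tested.

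**Figure D3:**
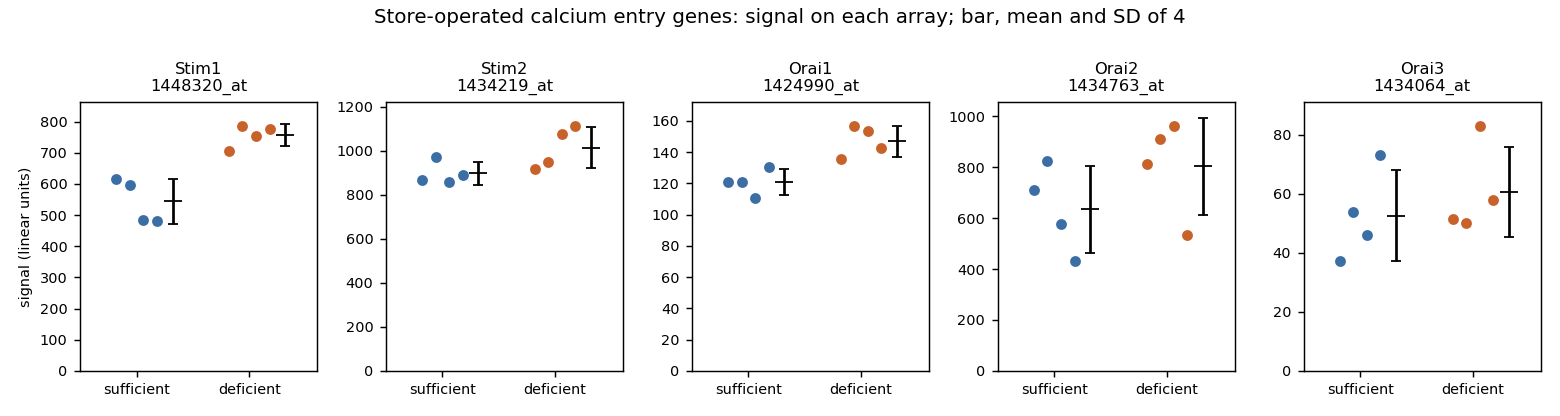
Signal in linear units on each array for the 5 store-operated calcium entry genes (points, 4 sufficient arrays in blue and 4 deficient arrays in orange; black bar, mean and SD; every axis starts at 0). Groups are separate for Stim1 and Orai1 and overlap for Stim2, Orai2 and Orai3; levels in different panels come from different probes and are not comparable.

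Voltage-gated calcium channel genes had 7 tested members of 24, of which 1 fell and 0 rose. Cacna1e encodes the pore of the R-type calcium channel. Probe set 1436260_at read 198, 123, 67.8 and 86.0 on sufficient arrays and 50.2, 57.1, 37.1 and 52.9 on deficient arrays. The sufficient arrays were widely spread, but the lowest of them was above all deficient arrays. On the log2 scale they differed by -0.96 ± 0.26 (adjusted p = 0.0417). The call ended with no variance trend (adjusted p = 0.0539), and without deficient replicate 1, 2, 3 or 4 or sufficient replicate 1 or 2 (adjusted p from 0.0547 to 0.112, differences from -1.02 to -0.71), and in the fit with the Xist level the difference was -1.72 (adjusted p = 0.0667).

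Other calcium channel genes stayed within the spread of their replicates. Cacna2d4, an auxiliary alpha-2-delta subunit gene, read 131 to 205 on sufficient and 146 to 261 on deficient arrays and differed by 0.31 (adjusted p = 0.341). Cacnb1, a cytosolic beta subunit gene reported in T cells, read 34.0 to 52.1 and 33.5 to 55.3, close to the dim limit, and differed by -0.05 (interval -0.47 to 0.37). Its dimmer probe set 1440940_at had the opposite sign, 0.52 (interval -0.27 to 1.31), and did not pass. Cacna1d, Cacna2d2, Cacng4 and Cacng7 differed by 0.09, 0.14, -0.33 and -0.23, none past the test. Cacna1f, an L-type pore gene on the X chromosome, stayed below the limit on 7 of 8 arrays and was not tested.

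CLC genes encode chloride channels of the plasma membrane and chloride-proton exchangers of endosomes and lysosomes. Of 7 members 6 were tested, 1 rose and 1 fell. Clcn5 encodes an endosomal exchanger, and probe set 1420295_x_at read 175, 225, 258 and 205 on sufficient arrays and 447, 428, 304 and 476 on deficient arrays. The groups were separate. The log2 difference was 0.88 ± 0.16 (adjusted p = 0.0056), 1.85-fold higher, and it passed without each array in turn (adjusted p up to 0.024).

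That probe set carries the suffix _x_at, given to probes that can match other transcripts, and 1429400_at, the other of 4 Clcn5 probe sets that was bright enough to test, did not follow it. The latter read 97.6 to 147 on sufficient and 113 to 152 on deficient arrays, and without _x_at and _s_at probe sets the gene differed by 0.16 (adjusted p = 0.568), while the mean of both gave 0.52 (adjusted p = 0.02). Clcn5 lies on the X chromosome. Sufficient replicate 1, the 1 sufficient array with high Xist, had the lowest Clcn5 value of all 8, and in the fit with the Xist level the difference was 1.15 (adjusted p = 0.0834).

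Clcn2, which encodes a chloride channel of the plasma membrane, fell. It read 78.3, 107, 92.6 and 96.8 on sufficient and 44.8, 54.5, 48.1 and 67.4 on deficient arrays. All deficient arrays were lower than all sufficient ones, by -0.66 ± 0.16 on the log2 scale (adjusted p = 0.0252). The call was lost without deficient replicate 1, 2 or 3 or sufficient replicate 2, 3 or 4 (adjusted p from 0.0591 to 0.0731, differences from -0.67 to -0.60), and with the Xist level it was -0.45 (adjusted p = 0.604). With a pseudocount of 64 the difference was -0.42 and passed.

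On their brightest probe sets, the 4 other tested CLC genes, of endosomes and lysosomes, had overlapping groups. Clcn3 read 1220 to 1599 on sufficient and 1281 to 1645 on deficient arrays, with a difference of 0.06 (interval -0.17 to 0.29). Clcn4 differed by -0.01 (interval -0.27 to 0.25), Clcn7, the lysosomal exchanger gene, by 0.04 and Clcn6 by -0.05. For Clcn3 and Clcn4 these intervals exclude changes as large as that of Clcn5's brighter probe set. The Clcn3 probe set, 1438366_x_at, is also an _x_at one, and the gene's other probe sets differed by -0.11, -0.19, -0.15 and 0.27. The dimmer Clcn4 probe set 1448161_a_at did not overlap, at 572 to 676 on sufficient and 475 to 568 on deficient arrays (log2 -0.20). None of these passed the test.

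TRP channels are cation channels opened by lipids, heat, stretch or other cues. Of 19 genes 7 were tested, 1 rose and 0 fell. Trpm1, known from retinal bipolar cells and melanocytes, read 17.2, 1.6, 3.2 and 5.5 on sufficient arrays and 70.6, 61.0, 94.6 and 37.9 on deficient arrays. All 4 sufficient arrays were dim and all 4 deficient ones above the limit, so it entered the test only through the group in which it was high and had to differ.

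Its level was at least 1.59-fold higher on deficient arrays when the sufficient group is set at the limit (fitted log2 difference 1.84 ± 0.28, adjusted p = 0.00262; 3.41 with a pseudocount of 1 and 0.86 with 64). The 3 other Trpm1 probe sets stayed at or below 24.0 on every array. In the fit with the Xist level the fitted difference was 1.26 (adjusted p = 0.279). Without any one deficient array Trpm1 no longer reached the limit on 4 arrays and could not be tested.

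Trpm7 encodes a channel fused to a kinase that carries magnesium and calcium and is known to be needed for thymocyte development. It read 1337, 1335, 1590.1 and 1459.9 on sufficient and 1296, 1138, 1440.0 and 1503 on deficient arrays, overlapping, with a difference of -0.09 (interval -0.32 to 0.13, adjusted p = 0.636). Trpv2 read 912 to 1079 and 839 to 928 and differed by -0.15 (interval -0.33 to 0.04, adjusted p = 0.315). Trpc4ap read 2241 to 2724 and 2270.3 to 2430.4 and differed by -0.01 (interval -0.19 to 0.16). Trpc2, Trpc7 and Trpm2 also did not pass.

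P2X receptors are channels opened by extracellular ATP. Of 7 genes P2rx1 and P2rx4 were tested and neither passed. P2rx1 read 768, 773, 640.0 and 490.3 on sufficient and 859, 936, 885 and 589 on deficient arrays (log2 0.29, interval -0.09 to 0.67). P2rx4 read 67.7 to 87.0 and 84.9 to 95.2 (log2 0.16, interval -0.13 to 0.44). Replicate 4 was the lowest for P2rx1 in either group.

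The 116 genes not tested were dim: 98 were at or below the limit on every array with every probe set, and the highest signal of any was 58.6. Absence of a test is not absence of the transcript. P2rx7, the receptor gene tied to ATP-induced T-cell death, read 24.3, 26.8, 12.4 and 6.2 on sufficient and 47.0, 55.5, 53.4 and 31.3 on deficient arrays, just short of the filter. All 4 deficient arrays were higher, and with no filter the difference of 0.94 had an adjusted p of 0.0698. Trpm4 read 13.0 to 37.8, above the limit on 2 arrays, and Trpc1 0.8 to 10.7.

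With no filter, all 157 genes could be fitted, and 4 were higher and 4 lower, where 2.34% and 1.75% of all 18193 genes passed. Among them 2 genes had not been tested before. Kcnip3, which encodes a calcium-binding protein that pairs with Kv4 channels and is also known as a transcriptional repressor, read 7.4 to 16.5 on sufficient arrays and 47.8, 55.5, 57.3 and 29.9 on deficient ones. Its adjusted p was 0.00975, with all sufficient arrays and deficient replicate 4 below the limit. Kcnip4 was below the limit on all 8 arrays, so no fold is given. Clcn2, Cacna1e and Kcna2 lost their calls in that fit (adjusted p = 0.0735, 0.0823 and 0.059).

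Several genes that did not pass the test between groups varied together across mice. In all, 8 genes had their 3 lowest signals on the same 3 arrays, sufficient replicates 3 and 4 and deficient replicate 4: Cacna2d2, Cacna2d4, Kcnq1ot1, Kcnq5, Orai2, P2rx1, Scn2b and Trpc2. These are 19.5% of the 41, and over all tested genes 6.84% showed this pattern. Kcnq1ot1, the noncoding RNA of an imprinted locus, was the widest, at 573, 459, 194 and 208 on sufficient and 413, 522, 590.5 and 284 on deficient arrays. A further 3 genes, Cacng4, Trpm2 and Trpm7, had their 3 highest signals there (7.32%, against 8.13% of all genes). Over all tested genes, deviations from the group mean on deficient replicate 4 correlated at 0.37 and 0.36 with those on sufficient replicates 3 and 4. With sufficient replicates 1 and 2 they correlated at -0.30 and -0.39. Deficient replicate 4 also had the highest 18S rRNA control signal, 7143, with 1300 and 1241 on sufficient replicates 3 and 4. No label or header sets these 3 arrays apart, the pattern was noticed in the values, and its source was not tested.

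**Figure D4:**
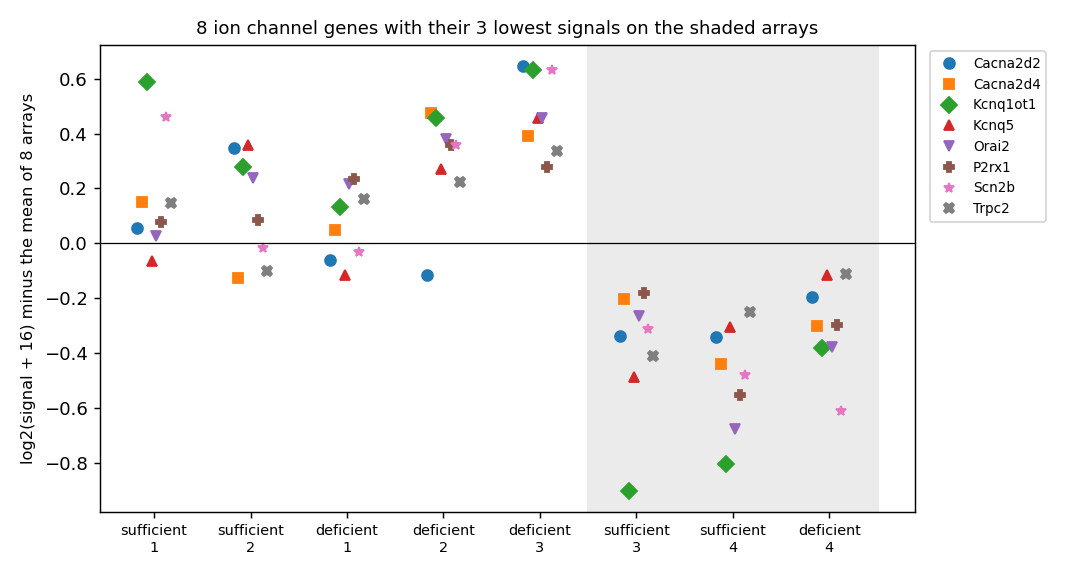
Log2(signal + 16) minus the gene's mean over 8 arrays (y axis) on each array (x axis) for the 8 genes with their 3 lowest values on sufficient replicates 3 and 4 and deficient replicate 4, which are shaded. All points in the shaded part lie below 0, and those of Kcnq1ot1 range widest.

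Beside the channels, 104 further genes of ion handling were looked up in 6 lists, and of 69 tested 7 were higher and 4 lower (10.1% and 5.80%, against 5.9% and 4.08% of all genes), with a median log2 difference of 0.08. In the list of store-operated entry and calcium release 0 of 7 passed, and Saraf, whose product closes store-operated entry, read 4509 to 7046 on sufficient and 5268 to 7296 on deficient arrays (log2 0.08). Of 12 tested calcium pumps, exchangers and uptake genes 1 fell: the Golgi pump gene Atp2c1 fell by 0.41, from 539 to 682 on sufficient to 421 to 460.1 on deficient arrays.

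Among 18 calcineurin, NFAT and calmodulin genes 2 rose and 2 fell. Camk4, a calmodulin-dependent kinase gene of thymocytes, read 2968, 3525, 2641 and 2252 on sufficient and 1635, 1585, 1248 and 1426 on deficient arrays, with no overlap and a log2 difference of -0.93 ± 0.13 (adjusted p = 0.00189). Camk2b, another kinase of the same kind, rose by 1.27 ± 0.31 (adjusted p = 0.0246) from 19.8 to 54.2 on sufficient to 47.5 to 146 on deficient arrays, where groups overlapped and 3 sufficient arrays were dim. Nfatc3 also fell and Rcan3, a calcineurin inhibitor gene, also rose.

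Of 3 tested sodium pump genes 2 rose. The beta-3 subunit gene Atp1b3 read 2159 to 2458 on sufficient and 2907 to 3097 on deficient arrays (log2 0.35 ± 0.07, adjusted p = 0.00981), and the pump regulator gene Fxyd5 rose by 0.59. Of 14 genes of cation-chloride cotransport, proton exchange and volume regulation 1 rose, the potassium-chloride cotransporter gene Slc12a7, by 0.86 (adjusted p = 0.0227).

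Among 15 tested channel genes outside the symbol rule 2 rose and 1 fell. Hvcn1, which encodes the voltage-gated proton channel, read 162, 187, 104 and 107 on sufficient and 357, 384, 477 and 267 on deficient arrays, without overlap (log2 1.32 ± 0.21, adjusted p = 0.00302). Ano6, the gene of a calcium-activated scramblase and channel, fell by 0.69 (adjusted p = 0.0175). Piezo1, a stretch-activated channel gene, also rose. With the Xist level in the model 0 of the 69 genes passed.

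Genes listed as markers of mature single-positive thymocytes also differed between the groups, and 6 of 7 tested rose. The summed signal of the list was 2287 to 2925 on sufficient and 4453 to 5779 on deficient arrays. Ccr7 read 18.1 to 111 and 732 to 934. The list is named for a cell type, while every mouse here was Tcra-/- and the study concerns cells before positive selection. Whether mature cells were present was not tested. Il7r was the tested gene of this list that did not pass. S1pr1, also of this list, read 2.9 to 37.0 and was too dim to be tested. Of 10 double-positive markers 3 fell and 0 rose, Rag2, Dntt and Arpp21, and their summed signal was 63748 to 68324 and 58993 to 63078. Summed signals of 3 other marker lists did not overlap either. The B cell list went from 7142 to 7364 on sufficient to 7649 to 8597 on deficient arrays, nearly all of it from Ighm, with Cd79a at 4.3 to 25.6. The list of gamma-delta, NKT and NK cell markers went from 2055 to 2608 to 3192 to 4387, nearly all from Gzma, with Ncr1 at 1.7 to 17.6. Klrd1, the other tested gene of that list, read 14.0 to 74.2 on sufficient and 75.5 to 108 on deficient arrays. Its groups did not overlap, but it did not pass the test (adjusted p = 0.155). The neuron and glia list went from 1380.4 to 1664 to 1704 to 1747, nearly all from Mbp. Macrophage and dendritic cell (790 to 2028 and 1168 to 1676), thymic stroma (816 to 881 and 571 to 833), erythroid (129 to 193 and 123 to 173) and granulocyte lists (47.0 to 103 and 71.4 to 185) overlapped. Within the stroma list, Pecam1 (651 to 712 and 387 to 647) and Epcam (73.9 to 117 and 43.5 to 72.8) did not overlap. Both were lower on deficient arrays, and neither passed the test. Col3a1, dim on all 8 arrays, was higher on every deficient array. Of these 7 lists 1 gene passed the test, Gzma, which rose by 0.75. The part of these shifts in the channel gene differences was not tested.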

How the data were processed

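RNA of double-positive thymocytes from 8 mice was labelled with biotin and measured on 8 one-colour arrays. The deposited table holds linear intensities (signals) of 45101 probe sets, made with GCOS per the submitters' processing notes. The sources used here name no version or settings of it. The 2% trimmed mean was 250.0 on every array, so the deposited intensities had been scaled to a common level, which hides differences in total RNA per cell.

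From there 64 control probe sets were left out, and 34945 probe sets with 1 gene symbol in the platform annotation were used (932 had several, 9160 none). All 157 channel genes matched RefSeq by gene identifier. Each gene was read by whichever probe set was brightest by mean log2(signal + 16), and 9939 genes above 33.8 on at least 4 arrays were fitted with limma 3.58.1 in R 4.3.3 (lmFit, eBayes with a variance trend, two-sided, Benjamini-Hochberg, adjusted p under 0.05). A log2 difference with this pseudocount understates changes of dim genes. A gene dim throughout 1 group has only a bound, set against the limit. The number of arrays limits the precision; the sources used here name no batch. Plots used Python 3.11.15 and matplotlib 3.10.9. The fit was also run on simulated data with independent noise for each gene. Those data hold no pattern shared between arrays and no Xist difference, so that run does not cover either.

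Named with values were every channel gene past the test, the 2 brightest tested genes of each of 10 families and preset genes of T-cell ion transport; of each list of other ion handling genes, up to 2 changed genes with the largest change, or the brightest where none changed. Genes beyond that rule (Kcnip3, Kcnip4, the 8 genes low on 3 arrays and neighbours of called genes) were named after their values were seen. The channel genes, lists and alternatives were chosen with earlier results of these data known. Alternatives were quantile normalization, pseudocounts of 1 and 64, no and a stricter filter (74.9), other probe set choices, no trend, array weights, a replicate block, the Xist level as a class cut at a signal of 1000, a threshold of 0.01 and leaving out each array.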

Additional observations from a re-analysis of the deposited data

Results flagged for a closer look

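Of 66 groups (33 named genes, 4 arrays each), 3 held an array far outside the range of the rest, where chance flags about 1 in 20. Scn4b read 115 on deficient replicate 3 and 47.2 to 58.6 on the other deficient arrays. Trpc4ap read 2724.3 on sufficient replicate 3 and 2241 to 2310 on the other sufficient arrays. Cacna1f read 25.9 on sufficient replicate 3 and 5.2 to 5.9 on the others, all below the dim limit.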

How the results depend on the processing

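The counts of channel genes, 3 higher and 6 lower, stayed within 1.5 times under quantile normalization, both other pseudocounts, no filter and the stricter one, other probe sets, no variance trend and array weights. In the fit that includes Xist, whose group term rests on sufficient replicate 1, they were 0 and 1, and the counts of other ion handling genes, 7 higher and 4 lower, were 0 and 0. At an adjusted p of 0.01 the lower channel genes were 3, and the other genes 2 higher and 1 lower. Array weights gave 13 higher other genes, while higher calls over all genes went from 5.9% to 10.4%.

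Leaving out 1 array gave 1 to 3 higher and 3 to 5 lower channel genes, with 1 higher without deficient replicate 2 and 3 lower without deficient replicate 1, 2 or 3. Over all genes these fits called 5.09% (without sufficient replicate 3) to 12.1% (without deficient replicate 4), against 9.98%. Other ion handling genes were 2 to 9 higher (2 without sufficient replicate 3, 3 without deficient replicate 1 or 2) and 2 to 5 lower (2 without deficient replicate 2). Replicate numbers of the titles did not pair the arrays: deviations of same-numbered arrays correlated at 0.003, 0.17, -0.27 and 0.36. With the replicate block 3 channel genes were higher and 6 lower, and 9 and 5 other genes. Over the named channel genes, 504 alternative values kept their side of the threshold, 36 lost the call, 2 gained it (Kcnmb4, also -0.68 with array weights) and 0 called ones reversed. Of 34 other probe sets of the tested channel genes past the filter, 23 had the sign of the probe set used and 11 the opposite. Dim signals limit what 116 channel genes can show.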
